A study of Mus musculus with 12 samples.

Results

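The cytosolic ribosomal protein genes are the nuclear genes whose products, together with ribosomal RNA, form the large and small subunits of the cytosolic ribosome. Members were chosen by symbol: protein-coding genes named Rpl or Rps with a number, with the suffixes a, x, y and l allowed, plus Rplp0, Rplp1, Rplp2 and Rpsa, leaving out S6 kinases, pseudogenes and predicted genes. The rule gave 81 members among 45321 genes, 50 of the large subunit and 31 of the small subunit, on 19 chromosomes of the mouse. RNA was sequenced from total CD4+ T cells of C57BL/6 mouse spleen, obtained by untouched purification, as 12 libraries in 4 groups of 3. CsA_PI cells had 1 µM cyclosporin A (CsA) for 1 h and were then stimulated for 2 h with 10 nM PMA and 1 µM ionomycin. Ethanol_PI cells had the vehicle ethanol and the same stimulation. CsA_US cells had CsA and ethanol_US cells had ethanol, and both were left unstimulated. No group carries a genetic change, and the cells are a mixture of all CD4+ T cells of the spleen. The labels do not say whether replicates are separate mice, so each p-value covers only how libraries of a group differ, and that may be technical variation.

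Ribosomal protein mRNAs are among the most abundant of a cell, and their products are made in near-equal amounts. Most of these mRNAs begin with a C followed by a run of C and T (U) bases, the 5′ terminal oligopyrimidine (TOP) motif, through which mTOR signalling sets how well they are translated. Quiescent T cells enlarge their ribosome supply on activation. PMA and ionomycin activate protein kinase C and calcium signalling in place of the antigen receptor, and CsA with cyclophilin blocks calcineurin, the calcium-dependent phosphatase that activates NFAT.

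To show the sequences at issue, 60 bases around the RefSeq start (GRCm38.p6, 30 before and 30 from the start on) are given 5′ to 3′ for 4 members described below for their rise on stimulation (Rpl12, Rps27l with its 2 starts, Rpl36al and Rpl27) and for the 2 most abundant members (Rps27 and Rplp0), with the longest run of C and T bases in capitals.
Rpl12 (chr2:32961682-32961741, plus strand): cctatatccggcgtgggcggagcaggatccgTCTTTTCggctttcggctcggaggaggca
Rps27l (chr9:66946056-66946115, plus strand): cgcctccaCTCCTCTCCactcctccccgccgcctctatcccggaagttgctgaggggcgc
Rps27l (chr9:66946383-66946442, plus strand): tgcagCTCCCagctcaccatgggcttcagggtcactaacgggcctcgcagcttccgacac
Rpl36al (chr12:69184038-69184097, minus strand): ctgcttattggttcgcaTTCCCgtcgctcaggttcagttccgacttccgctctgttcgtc
Rpl27 (chr11:101442215-101442274, plus strand): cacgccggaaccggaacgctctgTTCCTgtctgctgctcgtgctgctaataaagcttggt
Rps27 (chr3:90213619-90213678, minus strand): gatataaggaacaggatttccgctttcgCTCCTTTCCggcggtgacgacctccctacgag
Rplp0 (chr5:115559437-115559496, plus strand): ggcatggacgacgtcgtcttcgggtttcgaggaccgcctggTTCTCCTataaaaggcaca
The longest run was of 5 to 9 bases in these windows. Where runs of equal length occurred, as in both Rps27l windows and in Rpl36al, only the first is in capitals. RefSeq promoters were matched by symbol for 61 of the 81 members. A sense-strand run of 8 or more C or T bases lay within 30 bases of an annotated start in 34 of the 61 (55.7%), against 25.8% of 27025 genes. In the window reaching 250 bases before and 50 bases after the start, searched on both strands, CCGGAAG was found in 25 of 61 members (41.0%) against 9.9% of genes. CTCTTTC, which can be part of the C and T run, was found in 17 of 61 members (27.9%) against 9.3% of genes, and AAGATGGC in 5 of 61 (8.2%) against 3.2%.

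All 12 libraries held T cell RNA: the 8 CD4 T cell markers summed to between 3043 and 6221 CPM (counts scaled to library size, here with trimmed mean of M values, TMM), while the 8 B cell markers ranged widely within groups, from 79.6 to 1035 CPM in CsA_PI and from 108 to 1010 CPM in ethanol_US. CsA_PI replicate 2 stood apart from the other CsA_PI libraries. Its TMM factor was 1.14, against 0.871 and 0.910 in CsA_PI 1 and 3, and the CsA_US factors were 1.13 to 1.17. The main calls and medians that use CsA_PI are therefore also given without CsA_PI 2. In CsA_PI over ethanol_PI the median log2 fold change of the B cell markers was 0.80 with CsA_PI 2 and -1.23 without it. For 8 myeloid and dendritic markers it was 0.12 and -1.95. Their sums ranged from 49.4 to 258 CPM in CsA_PI and from 45.5 to 265 CPM in ethanol_US. Whether other cells set CsA_PI 2 apart was not tested. Library depth was 10523816 to 18468044 estimated counts. In such bulk libraries fewer cells of a type and less RNA per cell cannot be told apart.

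All but 3 members were expressed in every group. After a filter on low counts, 78 members were tested among 14398 genes. Rpl3l, Rpl10l and Rpl39l, paralogs known from muscle or testis, did not pass: Rpl3l and Rpl10l were at or below 0.123 TPM (a level corrected for depth and transcript length) in all 12 libraries, and Rpl39l lay between 0.296 and 1.62 TPM. Mean TPM of the 78 members ran from 73.0 to 5561 with a median of 749, where the median of all genes tested was 10.0. Of the genes with a mean above 1000 TPM, 29 were members and 113 were other genes.

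The highest mean level over the 12 libraries, per length, was that of Rps27, a zinc-finger protein of the small subunit, at 5561 ± 1594 TPM (SD, n = 12). Rplp0, the scaffold of the stalk that recruits elongation factors, had 4777 ± 447 TPM. Rps19, a small-subunit head protein mutated in human Diamond-Blackfan anaemia, had 4356 ± 884 TPM. These 3 SDs span the gaps between them. Rpl32, Rpl13 and Rps14 followed at 2720, 2697 and 2600 TPM. At the low end of the expressed members stood Rpl12, which sits at the base of the stalk, with 106 ± 27.7 TPM. Rpl5, which carries 5S rRNA into the large subunit with Rpl11, had 94.2 ± 23.3 TPM. Rps12 had a mean of 73.0 TPM, with 31.1, 191 and 72.2 TPM in CsA_PI, 65.3, 104 and 126 TPM in ethanol_PI, 114, 81.6 and 35.3 TPM in ethanol_US, and 56.0 TPM in CsA_US 1. It was listed at essentially 0 in CsA_US 2 and 3, and 90.4% of its 31-base words also occur in other annotated genes.

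Low values of members such as Rps12 depend on how reads were divided among near-identical copies. Across the 78 members a median of 57.0% of 31-base words were shared with other genes, and 252 pseudogene copies could be assigned to 66 members. Sharing exceeded 75% for 26 members and was under 25% for 7, so levels of single members are uncertain to that extent.

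Together the members took between 2.90% and 4.62% of the estimated counts of a library. They held 4.23% and 3.33% of the estimated counts in CsA_PI 1 and 3 and 3.69% in CsA_PI 2. In ethanol_PI they held 3.22%, 3.04% and 2.90%. In CsA_US they held 3.86%, 4.62% and 4.01%, and in ethanol_US 3.37%, 4.03% and 3.01%. The 3 CsA_PI libraries all lay above the 3 ethanol_PI libraries, and the unstimulated groups overlapped. The share was 3.75 ± 0.453% in CsA_PI and 3.05 ± 0.163% in ethanol_PI (SD, n = 3 each), a ratio of 1.23 (two-sided exact permutation p = 0.10, the smallest that 3 against 3 allows). Without CsA_PI 2 the ratio was 1.24. Ethanol_PI stood at 0.879 times ethanol_US (3.05 ± 0.163% and 3.47 ± 0.518%, exact permutation p = 0.30). CsA_US stood at 1.20 times ethanol_US (exact permutation p = 0.30), and CsA_PI at 0.901 times CsA_US (exact permutation p = 0.40).

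The share depends on what else a library holds. After TMM scaling, which sets most genes equal between libraries, the summed CPM of the members was 40151 ± 3557 in ethanol_PI and 29978 ± 5475 in ethanol_US (SD, n = 3 each), a ratio of 1.34 with no overlap (exact permutation p = 0.10). CsA_PI, with 48872 and 36873 in replicates 1 and 3 and 32591 in replicate 2, stood at 0.982 times ethanol_PI on that scale (exact permutation p = 0.80) and at 1.08 times CsA_US. Reads on CT010467.1, AY036118 and Lars2, a set of transcripts with ribosomal RNA-like sequence, varied with the libraries too. They took 9.74%, 9.50% and 5.14% of CsA_PI, 3.52%, 3.54% and 2.62% of ethanol_PI, 4.59%, 11.3% and 5.46% of CsA_US, and 3.38%, 10.4% and 2.45% of ethanol_US. The member share was highest in CsA_US 2 and CsA_PI 1, which also held much of this RNA; all 3 CsA_PI libraries held more of it than any ethanol_PI library. Its part in the result was not tested. Without these transcripts in the totals the share in CsA_PI over ethanol_PI was 1.30 times. CsA_PI held more of them, so taking them out can only raise this ratio, and it is no check.

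**Figure D1:**
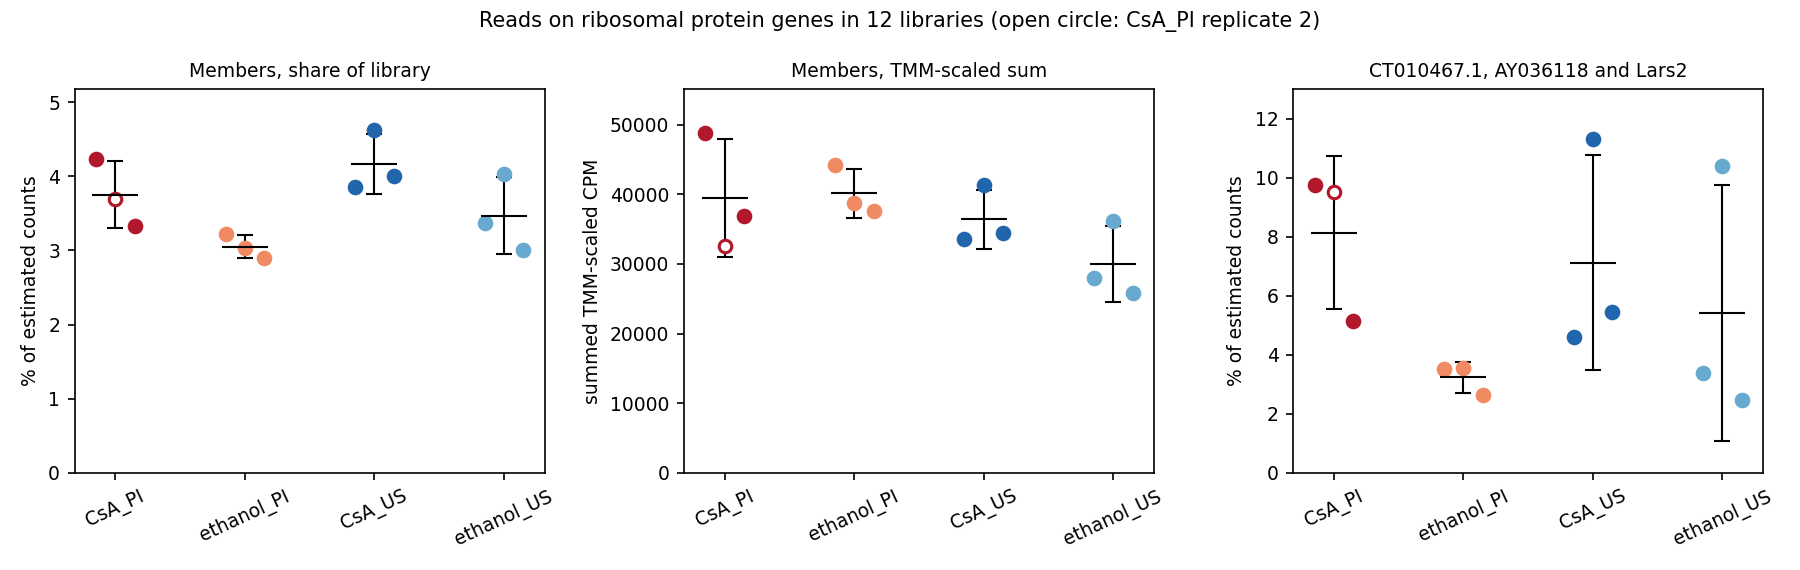
Share of estimated counts on the 81 members (left, percent), their summed TMM-scaled CPM (middle) and the percent of counts on CT010467.1, AY036118 and Lars2 (right) by library. Points are libraries, bars are mean and SD (n = 3) and the open circle is CsA_PI replicate 2. All CsA_PI libraries lie above ethanol_PI on the left, at 3.75% against 3.05% on average, and on the right, and all ethanol_PI libraries lie above ethanol_US only in the middle.

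By summed TPM, large-subunit members gained on small-subunit members in stimulated cells. The ratio of their summed TPM was 1.21, 1.19 and 1.19 in ethanol_PI, against 0.915, 1.12 and 1.04 in ethanol_US. It was 1.11, 1.13 and 1.16 in CsA_PI, against 1.04, 1.07 and 1.04 in CsA_US. The groups did not overlap in either comparison, nor did CsA_PI and ethanol_PI, where CsA_PI was lower, and each had the smallest exact permutation p of 0.10. This ratio is within a library and so does not depend on its scaling. Summed TPM gives the most abundant members the most weight. After TMM scaling, the median log2 fold changes of large and small members were 0.42 and 0.34 in ethanol_PI over ethanol_US. They were 0.09 and 0.12 in CsA_PI over CsA_US, where the medians did not show the gain. In CsA_PI over ethanol_PI they were -0.04 and 0.09.

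**Figure D2:**
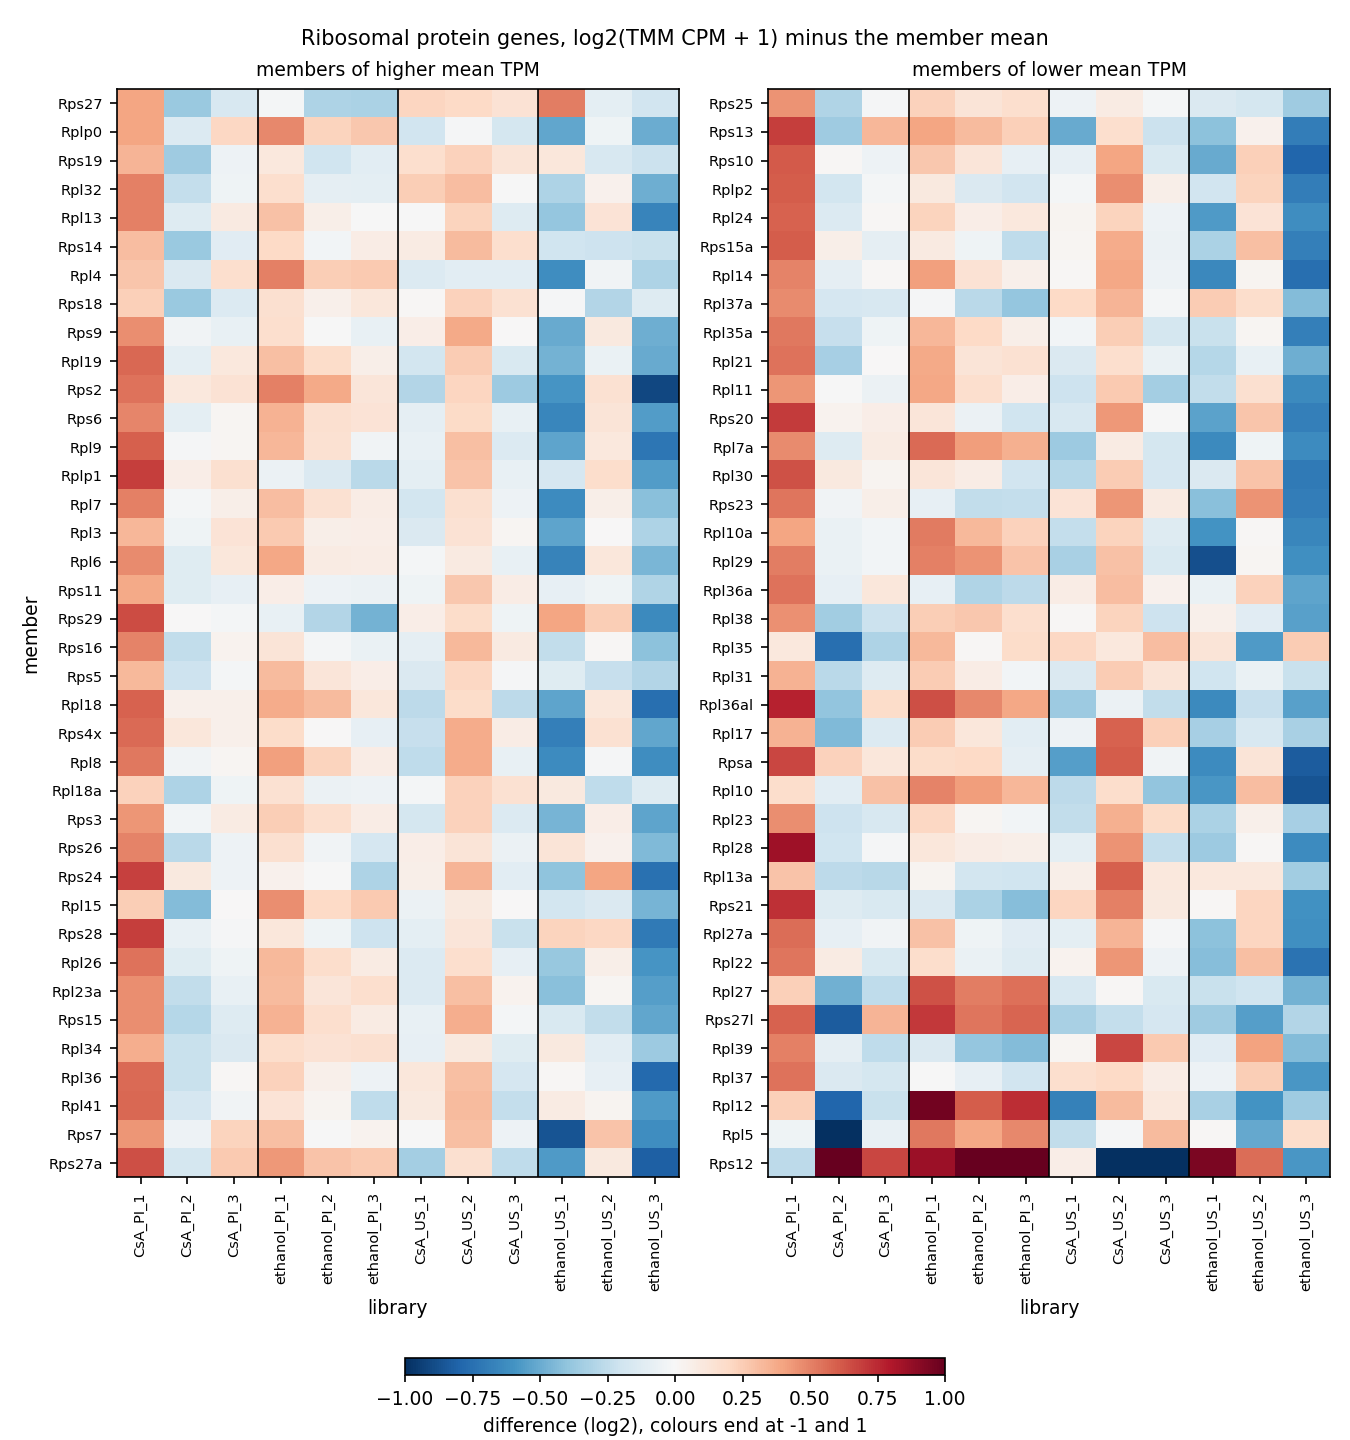
Tested members (rows, ordered by mean TPM) in 12 libraries (columns). Colour is log2(TMM CPM + 1) minus the mean of that member over the libraries, ending at -1 and 1, and vertical lines part the groups. Columns differ as a whole, with CsA_PI 1 high and ethanol_US 3 low for most members, while Rpl12, Rpl27 and Rps27l are high across the 3 ethanol_PI libraries.

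Stimulation in vehicle, ethanol_PI over ethanol_US, asks how the members respond to PMA and ionomycin alone. Relative to the mass of genes they were modestly higher. The test called 13 members higher (13 of 78, where 20.1% of all genes tested were called higher) and 0 lower (19.7% of all genes), by edgeR's quasi-likelihood test with Benjamini-Hochberg adjustment over all genes. The median log2 fold change was 0.40 over members and -0.02 over all genes. Of the members, 38 of 78 were higher in all 3 ethanol_PI libraries than in any ethanol_US library, against 28.0% of all genes, and 0 were lower in this sense, against 27.4%. The share of members called is below the background. Their fold changes were closely grouped, with quartiles of 0.16 and 0.56, against -0.77 and 0.71 for all genes.

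The scaling decides the sign of the median. By library totals the median of all genes shifted to -0.63 and that of the members to -0.21, with 1 member called higher and 14 lower, where 48.7% of all genes were called in either direction and 37.8% lower. Relative to the median of all genes the members stood 0.42 higher under either scaling. A change of scaling moves all genes nearly alike, so this is no separate check. That gap was 0.24 by limma on TPM, 0.26 without the filter, 0.32 without ethanol_US 3 and 0.59 without ethanol_US 2. All fold changes below are on the TMM scale unless stated otherwise. Leaving out ethanol_US 2 raised the count of higher members to 30, and leaving out ethanol_US 1 lowered it to 5. It was 6 without ethanol_US 3, 6 without ethanol_PI 1 and 8 without CsA_US 3. The member median was 0.24 without ethanol_US 3.

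Rpl12 (ENSMUSG00000038900, chr2:32961559-32965345, GRCm38) had 145, 113 and 124 CPM in ethanol_PI, against 58.7, 48.3 and 57.3 CPM in ethanol_US. With CsA it had 87.3 and 63.1 CPM in CsA_PI 1 and 3, 42.1 CPM in CsA_PI 2, and 45.7, 92.2 and 79.3 CPM in CsA_US. Ethanol_PI was apart from every other library. The log2 fold change of stimulation in vehicle was 1.21 ± 0.28 (SE; edgeR adjusted p = 0.00468).

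Rpl27 (ENSMUSG00000063316), a large-subunit protein, had 116, 106 and 109 CPM in ethanol_PI, against 63.6, 64.6 and 53.2 CPM in ethanol_US. The groups did not overlap, and the log2 fold change was 0.87 ± 0.19 (edgeR adjusted p = 0.00286). A pair of paralogs of main subunit genes rose as well. Rps27l, a paralog of Rps27, had 73.5, 65.2 and 67.1 CPM in ethanol_PI, against 34.6, 30.2 and 36.3 CPM in ethanol_US (log2 fold change 1.02 ± 0.28, edgeR adjusted p = 0.0118). Rpl36al, a paralog of Rpl36a, had 164, 146 and 137 CPM in ethanol_PI, against 66.8, 88.7 and 71.4 CPM in ethanol_US (0.98 ± 0.25, edgeR adjusted p = 0.00739). Neither of their partners was called: Rps27 stood at -0.32 ± 0.24 and Rpl36a at -0.12 ± 0.21. The difference between paralog and partner was not tested.

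The other called members lay between 0.57 and 0.86. Rpl29 and Rpl7a, both of the large subunit, were at 0.86 each, and Rpl10a, near the exit site of the ribosome, was at 0.75. Rps27a, made as a fusion with ubiquitin, was at 0.71. Rplp0 was at 0.67 and Rpl4, which lines the peptide exit tunnel, at 0.64, with Rpl15 at 0.57. By library totals Rpl15 stood at -0.04, and Rpl4 at -0.00 by totals without the ribosomal RNA-like transcripts.

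By place in the ribosome, where 20.1% of all genes were called higher and each group is too small to be set apart from that share, 2 of 4 stalk members were higher, Rplp0 and Rpl12, while the stalk proteins Rplp1 and Rplp2 stood at -0.00 and 0.10. Of 8 members at the exit tunnel 1 was higher, with a median of 0.42. None of 5 members at the mRNA entry and head (median 0.40) or of 5 at the mRNA exit and platform (median 0.30) was called. Neither member of the 5S particle was called: Rpl5 stood at 0.55 ± 0.26 (edgeR adjusted p = 0.116) and Rpl11 at 0.42 ± 0.23 (0.176). With the replicate number as a block, Rpl5 passed (0.58, edgeR adjusted p = 0.0497), as it did without CsA_PI 2 (0.49, 0.0433). With the block so did Rpl10, which completes the large subunit late in its assembly, at 0.76 (0.0317, against 0.0531 unblocked) and Rps2, at the mRNA entry, at 0.77 (0.0207, against 0.0530).

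Of the other members followed for their roles, Rps6, the substrate of S6 kinase, stood at 0.53 ± 0.24 and Rps3, at the mRNA entry, at 0.45 ± 0.21. Rpsa, also known as the laminin receptor, stood at 0.49 ± 0.31 and Rpl38, a regulator of Hox mRNA translation in mice, at 0.42 ± 0.23. Rpl22, needed for the development of alpha-beta T cells in mice, stood at 0.22 ± 0.27. None of these passed the test, and by library totals all 5 lay below 0, between -0.38 and -0.07. Rps24, Rps26, Rps19 and Rpl13a lay between -0.08 and 0.09, and by library totals Rps19 (-0.60), Rps26 (-0.55) and Rpl13a (-0.70) were called lower.

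Members of short transcripts had the lower values. The 13 members with transcripts under 500 bases had a median log2 fold change of 0.06, the 41 between 500 and 799 bases 0.39, and the 24 of 800 bases or more 0.50. Spearman's rho with length was 0.34 across the 78 members and -0.00 across all 14398 genes, as a description. Among the lowest members, Rps29 stood at -0.34 and Rps27 at -0.32, both under 500 bases, and Rpl39, of 611 bases, at -0.32, none of them called. In TPM, which is not TMM-scaled, Rps29 had 983, 946 and 825 in ethanol_PI, against 2225, 1912 and 1074 in ethanol_US, without overlap. In TMM-scaled CPM its groups overlapped.

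**Figure D3:**
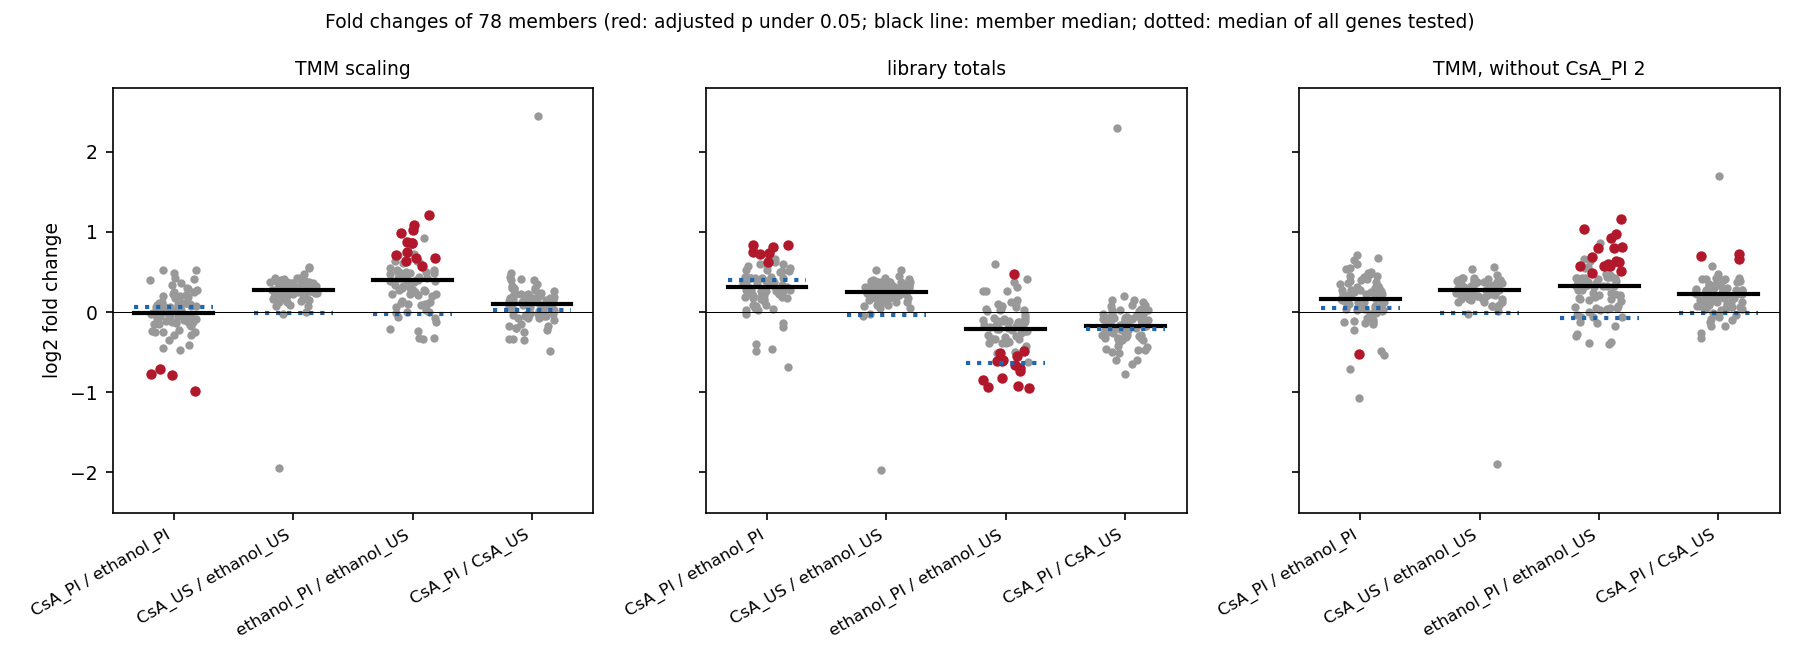
Log2 fold changes of the 78 tested members in 4 comparisons under TMM scaling (left), library totals (middle) and TMM without CsA_PI replicate 2 (right). Red points have an edgeR adjusted p under 0.05, black lines are member medians and dotted lines medians of all genes tested. In ethanol_PI over ethanol_US the member median stands 0.42 above that of all genes in the left and middle panels, while its sign differs.

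A list of genes that build ribosomes moved far more than the ribosomal proteins. The lists in this paragraph were chosen with earlier results of these data known, so their counts only describe the listed genes. Of 24 assembly factors, 24 were higher in ethanol_PI than in ethanol_US, with a median log2 fold change of 2.69 (20.1% of all genes were called higher). With the replicate block 23 were, Wdr12, a factor of large-subunit assembly, having an adjusted p of 0.0606 against 0.0468 unblocked (edgeR). Ncl, the nucleolar protein nucleolin, had 3487, 3047 and 3104 CPM in ethanol_PI, against 360, 649 and 487 CPM in ethanol_US. All 7 chaperones of ribosomal proteins were higher too (median 2.11), among them Grwd1, a chaperone of Rpl3, at 3.97. Of 16 other TOP genes 12 were higher (median 0.89), Npm1 the most abundant of those at 1.93. Eef1a1, the elongation factor with the highest CPM of that list, was not called at 0.61. Among subunits outside the symbol rule Rack1 was higher at 1.01, while Fau (0.24) was not called. By library totals 23 of 24 assembly factors, 4 of 7 chaperones and 4 of 16 other TOP genes were higher, and Rack1 was not called. Of the TOP genes 1 of 16 was then lower, where 37.8% of all genes were called lower and 48.7% in either direction. The median of the TOP genes was then 0.28, against -0.63 for all genes.

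CsA in stimulated cells, CsA_PI over ethanol_PI, asks which of these values calcineurin inhibition changes. The test called 4 members lower (4 of 78, background 12.7% of all genes) and 0 higher (10.3%), with a median log2 fold change of -0.01 over members and 0.06 over all genes. Among them were Rpl12 at -0.98 ± 0.28 (edgeR adjusted p = 0.0240), Rpl5 at -0.78 ± 0.26 (0.0475) and Rpl27 at -0.71 ± 0.19 (0.0154). In each of these 3 the CsA_PI libraries were all below the ethanol_PI libraries. This held for 5 of 78 members, Rpl10 among them, against 20.5% of all genes, and the reverse held for Rplp1, Rps23 and Rps29, 3 of 78, against 17.4%. Rpl5 had 79.2 and 77.3 CPM in CsA_PI 1 and 3 and 40.1 CPM in CsA_PI 2, against 118, 107 and 114 CPM in ethanol_PI. Rpl27 had 87.5 and 61.9 CPM in CsA_PI 1 and 3 and 52.8 CPM in CsA_PI 2.

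CsA_PI 2 was the lowest library of the group for these 3. Without it Rpl27 kept the call (-0.52, edgeR adjusted p = 0.0454), while Rpl12 (-0.71, 0.0586) and Rpl5 (-0.49, 0.115) missed it, with 1 of 78 members lower (background 12.1%) and 0 higher (10.4%). The member median was 0.16 without CsA_PI 2, with 63 of 78 above 0, and -0.18 without CsA_PI 1, with 65 of 78 below 0, so its direction rests on single libraries. By library totals the median of all genes was 0.40 and that of members 0.31, with 7 members called higher (19.9% of all genes), among them Rplp1, Rps21 and Rps29, and 0 lower (8.29%). With pseudogene copies added to their members none of the 78 was called in either direction, with Rpl12 at -0.31 and Rpl27 at -0.16; at an unadjusted p under 0.05 there were 2. The count of lower members was 0 to 4 when single libraries were left out, 0 without ethanol_PI 1, 2 without ethanol_PI 2, and 1 without ethanol_PI 3 or CsA_PI 3.

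The listed assembly factors again moved further, with the same limit on how the lists were chosen. All 24 were lower in CsA_PI than in ethanol_PI (median -1.95, and -1.72 without CsA_PI 2), as were 6 of 7 chaperones (5 without CsA_PI 2) and 5 of 16 other TOP genes (4 without CsA_PI 2), where 12.7% of all genes were called lower. By library totals all 24 assembly factors, 4 of 7 chaperones and 3 of 16 other TOP genes were lower, where 8.29% of all genes were. One TOP gene, 1 of 16, was then higher (19.9% of all genes). This comparison and stimulation in vehicle share the ethanol_PI libraries, so their values are not independent.

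**Figure D4:**
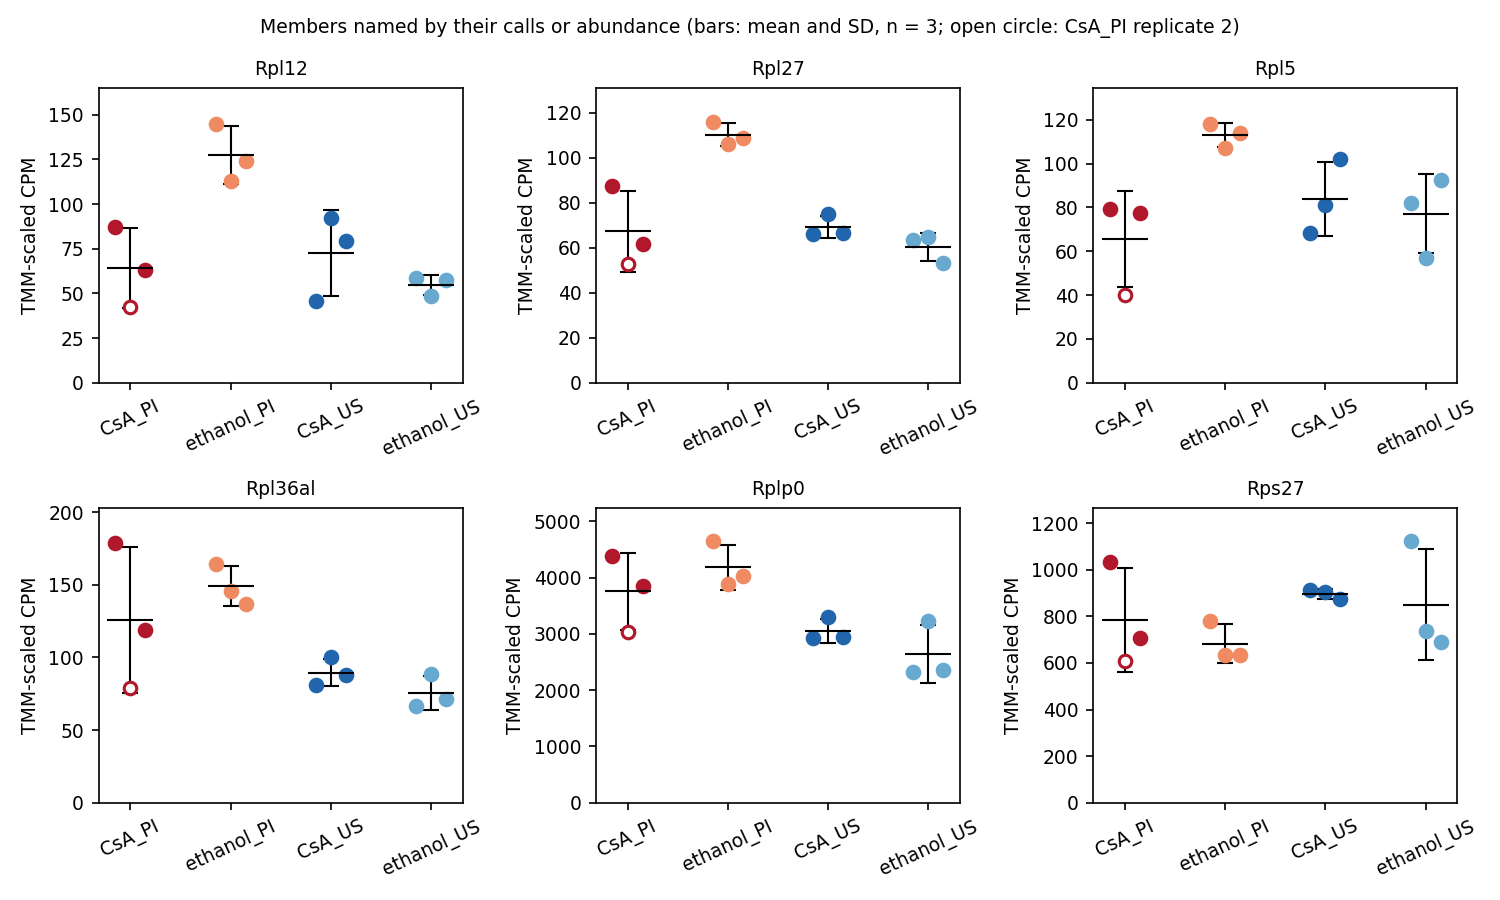
TMM-scaled CPM of Rpl12, Rpl27, Rpl5, Rpl36al, Rplp0 and Rps27 by library. Points are libraries, bars are mean and SD (n = 3) and the open circle is CsA_PI replicate 2. In Rpl12, Rpl27 and Rpl5 the 3 ethanol_PI libraries are the highest of the 12, while for Rps27 the 3 ethanol_PI libraries overlap those of ethanol_US.

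CsA without stimulation, CsA_US over ethanol_US, gave no called member. None of 78 passed in either direction (0% of all genes were called higher and 0.00695% lower), by edgeR or by DESeq2, and 2 members had an unadjusted edgeR p under 0.05 (3.23% of all genes). With all libraries 76 of 78 fold changes lay above 0, with a median of 0.27 over members and -0.01 over all genes, and quartiles of 0.22 and 0.36. The median standard error of a member was 0.23. Single libraries moved the median: it was 0.17 without ethanol_US 3 (68 of 78 above 0), 0.18 without CsA_US 2 (71 of 78), and 0.45 without ethanol_US 2, where 32 members had an unadjusted p under 0.05 and 0 an adjusted one. Rplp0 stood at 0.21 ± 0.21, Rpl32 at 0.42 ± 0.22 and Rpsa at 0.47 ± 0.31. The groups did not overlap for 9 members that were higher in CsA_US (9 of 78, against 4.63% of all genes) and for 0 that were lower (5.29%). Members share a library's overall level, so they are not separate observations of this shift, and the summed share of counts overlapped between the groups.

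Stimulation in the presence of CsA, CsA_PI over CsA_US, also gave no called member (0 of 78 each way, background 3.90% higher and 1.38% lower), with 0 by DESeq2 and 0 at an unadjusted edgeR p under 0.05 (25.7% of all genes). The median log2 fold change was 0.10 over members and 0.03 over all genes. Without CsA_PI 2, 3 members were higher (background 14.1%) and 0 lower (14.6%): Rpl36al at 0.72 (edgeR adjusted p = 0.0138), Rps27l at 0.70 (0.00435) and Rps13, a small-subunit protein, at 0.66 (0.0418). The median was then 0.22, against -0.01 for all genes. Without CsA_PI 1 it was -0.14, with 58 of 78 members below 0, and by library totals -0.17, against -0.21 for all genes, so its sign is not settled. In Rps27l the CsA_PI libraries had 67.6 and 56.6 CPM in replicates 1 and 3 and 24.6 CPM in replicate 2, against 35.5, 37.7 and 39.7 CPM in CsA_US. CsA_PI 1 and 3 lay above all CsA_US libraries and CsA_PI 2 lay below them.

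The difference between the stimulation responses with CsA and in vehicle was tested as an interaction. It was below 0 for 66 of 78 members, with a median of -0.29 against 0.07 for all genes. By library totals the median was 0.04 with 50 of 78 above 0, against 0.43 for all genes. Leaving out single libraries moved it to -0.12 (CsA_PI 2 or ethanol_US 3), -0.14 (CsA_US 2), -0.16 (ethanol_US 1), -0.47 (ethanol_US 2) and -0.49 (CsA_PI 1). The test called 2 members lower (2 of 78, background 6.19%) and 0 higher (3.54%): Rpl12 at -1.39 ± 0.40 (edgeR adjusted p = 0.0454) and Rpl27 at -0.90 ± 0.26 (0.0474). With the replicate block Rpl12 missed the threshold (-1.43, 0.0508), and without CsA_PI 2 Rpl12 (0.0458) passed while Rpl27 did not (0.0589), with 2 of 78 members lower (background 7.31%) and 0 higher (5.08%). With pseudogene copies added none passed, nor did any member when CsA_PI 3, CsA_US 2, CsA_US 3 or any one of the ethanol_PI or ethanol_US libraries was left out, and 3 were lower without CsA_PI 1.

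At the level of transcripts a change was seen that the sums over genes hide. The deposited estimates are per transcript, and the annotation marks some transcripts of ribosomal protein genes as retaining an intron, which are not expected to give the protein. Such transcripts held 3.96%, 3.95% and 4.31% of the members' counts in ethanol_PI, against 3.13%, 2.41% and 2.74% in ethanol_US. They held 3.23% and 2.96% in CsA_PI 1 and 3, 2.41% in CsA_PI 2, and 2.55%, 2.93% and 2.94% in CsA_US. The 3 ethanol_PI libraries lay above the other 9 (ethanol_PI over ethanol_US and CsA_PI under ethanol_PI, exact permutation p = 0.10 each). Among other protein-coding genes the share was 4.44 ± 0.0881% in ethanol_PI and 4.54 ± 0.239% in ethanol_US (SD, n = 3 each), with overlap.

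The shift was spread over many members. Taking genes with at least 10 counts in each library and at least 1% of their counts on such transcripts, 34 members and 3772 genes in all could be followed. This measure was chosen after transcript values had been seen. The retained-intron share was higher in ethanol_PI than in ethanol_US without overlap for 18 of 34 members, against 15.3% of all such genes, and lower for 1, against 8.75%. It was lower in CsA_PI than in ethanol_PI without overlap for 20 of 34 members, against 6.26% of all such genes, and higher for 0, against 8.80%. Without CsA_PI 2 that count was 21, but fewer libraries make it easier not to overlap, so this is no check. The share over all genes without CsA_PI 2 is not given here. In CsA_US against ethanol_US 1 member was higher (2.60% of genes) and 0 lower (6.50%). In CsA_PI against CsA_US 6 were higher (15.3%) and 6 lower (4.06%).

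In Rpl12 the ethanol_PI libraries lay above the other 9. Retained-intron transcripts held 56.8%, 50.3% and 57.1% of its counts in ethanol_PI, against 14.0%, 23.2% and 18.7% in ethanol_US. They held 48.1% and 43.6% in CsA_PI 1 and 3, 24.0% in CsA_PI 2, and 15.2%, 16.9% and 16.6% in CsA_US. The transcript Rpl12-207 alone, of 1417 bases, held 38.5 ± 2.67% in ethanol_PI and 12.5 ± 2.46% in ethanol_US (SD, n = 3 each). Compared with the coding transcript Rpl12-203, it keeps intron 1, intron 4, in which the small nucleolar RNA gene Snora65 lies, and intron 5. The 3 exon-intron boundaries are given 5′ to 3′ on the plus strand (GENCODE M21, GRCm38), with the first 15 retained intron bases in capitals.
Rpl12 intron 1 (chr2:32961840-32962048): acgaggtcaaagtcgGTGCGTGCCCTCGCC
Rpl12 intron 4 (chr2:32963067-32963496): agaagcagaagaacaGTGAGTCGGCCCCAC
Rpl12 intron 5 (chr2:32963584-32963740): ctagagaactttctgGTAAGAGCACGCTAT
Rpl27a intron 2 (chr7:109519649-109519917): gccacggccgcatcgGTAAGTGTGCGCCTC

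In Rpl27a, a large-subunit protein whose transcript Rpl27a-201 keeps the fourth of these introns, the share was 40.8%, 44.6% and 48.6% in ethanol_PI, against 24.1%, 20.1% and 27.1% in ethanol_US. It was 30.7%, 22.5% and 29.2% in CsA_PI, again without overlap. In Rpl5 it was 42.8%, 42.6% and 42.2% in ethanol_PI, against 23.2%, 19.7% and 25.5% in ethanol_US, while CsA_PI, at 36.6%, 24.7% and 44.7%, overlapped ethanol_PI. In Rpl10a it was 27.6%, 27.2% and 31.2% in ethanol_PI, against 14.0%, 8.20% and 12.4% in ethanol_US, and 13.8%, 7.84% and 16.2% in CsA_PI. Lower shares moved alike: Rps28, at the mRNA exit, averaged 3.99 ± 0.194% in ethanol_PI and 0.806 ± 0.428% in ethanol_US, and Rpl3, near the peptidyl transferase centre, 6.79 ± 0.449% and 2.47 ± 0.373% in the same groups (SD, n = 3 each). The member that went the other way, Rps20, stood at 51.8 ± 0.306% in ethanol_PI and 55.4 ± 2.45% in ethanol_US. In Rps19 the groups overlapped at 12.3 ± 2.69% and 12.7 ± 1.07%.

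**Figure D5:**
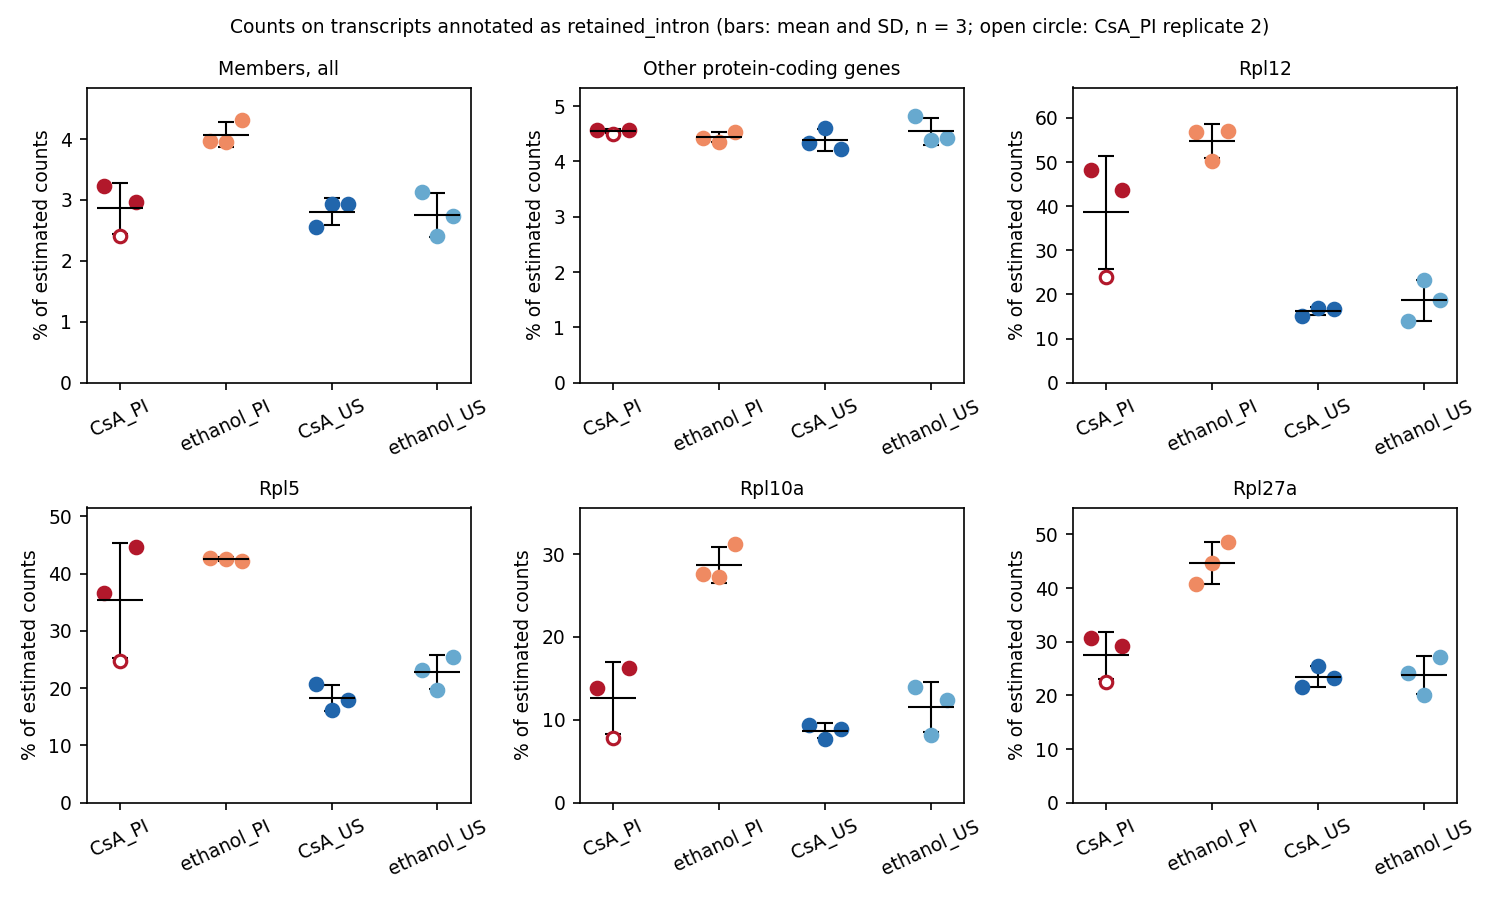
Percent of estimated counts on transcripts annotated as retained_intron, for all members together, for other protein-coding genes together, and for Rpl12, Rpl5, Rpl10a and Rpl27a, by library. Points are libraries, bars are mean and SD (n = 3) and the open circle is CsA_PI replicate 2. The 3 ethanol_PI libraries lie above the 3 ethanol_US libraries in each panel except that of other protein-coding genes.

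Summing coding transcripts alone changed which members were called. For ethanol_PI over ethanol_US 10 of 78 members were then higher and 0 lower, where the main fit called 20.1% and 19.7% of all genes. The median was 0.33, against -0.02 for all genes. Rpl12 stood at 0.18 ± 0.28 (edgeR adjusted p = 0.645), Rpl10a at 0.08 ± 0.24 (0.823) and Rps27a at 0.54 ± 0.26 (0.116), and none of these 3 was called. Rpl27 (0.77 ± 0.17, 0.00396) kept its call. For CsA_PI over ethanol_PI 2 of 78 members were lower, where the main fit called 12.7% of all genes lower. Rpl27 (-0.71) was among them, and Rpl12 (-0.34) and Rpl5 (-0.66) were not called. Reads of exons shared by coding and other transcripts are divided by the authors' estimation, so these shares are estimates and not counts of intron reads.

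Protein-coding forms were also compared within single members. In Rpl10a the coding form Rpl10a-201 held 48.8 ± 0.534% of counts in ethanol_PI and 76.3 ± 7.11% in ethanol_US, while Rpl10a-203, annotated as a target of nonsense-mediated decay, held 22.5 ± 2.64% and 12.2 ± 4.19% in the same groups. Rps24, whose transcripts differ in small 3′ exons, had 2 coding forms near parity: Rps24-201 held 50.8 ± 1.53% of its counts in CsA_PI, 48.7 ± 2.83% in ethanol_PI, 44.2 ± 3.76% in CsA_US and 47.0 ± 0.446% in ethanol_US (SD, n = 3 each). Ethanol_PI overlapped ethanol_US, while CsA_PI lay above CsA_US. Rpl27-202, the longer coding form of Rpl27, held 69.3 ± 3.42% in ethanol_PI and 56.1 ± 11.7% in ethanol_US, with overlap.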

How the data were processed

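Libraries were made by Clontech SMART-seq from total RNA, per the labels' protocols. The authors deposited per-transcript estimated counts and TPM from kallisto, with mm10 and cutadapt also named, per the submitters' processing notes; tool versions are not given in the sources used here. Of 109617 transcripts, 108214 matched GENCODE M21 by unversioned ID (unmatched: 0.494% to 0.628% of counts). Estimated counts were summed per gene and rounded. EdgeR 4.0.16 (R 4.3.3) fitted all 12 libraries with TMM, filterByExpr (minimum count 10, total 15) and robust quasi-likelihood, and Benjamini-Hochberg adjusted p under 0.05 made a call. The fit was tested on simulated counts with known changes. Alternatives used DESeq2 1.42.0 and limma 3.58.1 (log2(TPM + 1)). Same-numbered libraries deviated together for the 3 comparisons other than CsA_PI over CsA_US (r = 0.1434 to 0.4238, over 0.1 for every pair), so the replicate block is printed where it changes a call. Members and lists were chosen with earlier results of these data known. Named genes were extremes of TPM, the largest called changes, members fixed by role, paralogs, untested members, the most abundant genes of each list and transcripts with at least 10% of a gene's counts; members of the retained-intron comparison were chosen after their values were seen. Some members and listed genes are not reported here and are in the counts only.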

Additional observations from a re-analysis of the deposited data

Results flagged for a closer look

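The stimulation responses with CsA and in vehicle differed for 2 members by edgeR's quasi-likelihood interaction test. Rpl12 had an interaction of -1.39 (edgeR adjusted p = 0.0454). Rpl27 had an interaction of -0.90 (edgeR adjusted p = 0.0474). Neither was called when any one of the ethanol libraries was left out.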

How the results depend on the processing

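The members called higher by stimulation in vehicle, 13 as reported, numbered 1 by library totals, 1 by limma on TPM, 0 by totals without ribosomal RNA-like transcripts, 8 without the filter, 20 with only the compared groups and 33 with the replicate block and without CsA_PI 2 (5 to 30 leaving out single libraries); those lower numbered 14, 12 and 15 under the first 3 of these (0 to 1 leaving out single libraries). CsA in stimulated cells, 0 higher and 4 lower, gave 7 higher and 0 lower by library totals, 4 and 1 by limma, 10 and 0 by totals without ribosomal RNA-like transcripts, 7 and 2 with the replicate block and without CsA_PI 2, and lower counts of 1 with only the compared groups, 2 with coding transcripts and 0 with pseudogene copies (0 to 4 leaving out single libraries). Stimulation with CsA, 0 higher, gave 3 without CsA_PI 2 and 6 with the block added. The interaction, 2 lower, gave 0 by library totals, limma, totals without ribosomal RNA-like transcripts and pseudogene copies, and 1 without the filter, with coding transcripts only, with the replicate block and with the block without CsA_PI 2 (0 to 3 leaving out single libraries; higher, 0 to 1). By library totals 37.8% of all genes were called lower for stimulation in vehicle, and 19.9% higher and 8.29% lower for CsA in stimulated cells. For the other alternatives the shares of all genes are given only where printed beside the results. The counts therefore do not show whether members changed more between fits than other genes did. As TMM-scaled sums the ratios of 0.879, 1.23 and 0.901 became 1.34, 0.982 and 1.08. The share ratios ranged over 0.825 to 0.956, 1.15 to 1.30, 1.12 to 1.30 and 0.843 to 0.953 leaving out single libraries. The retained-intron counts of 18 and 20 of 34 members became 9 and 11 of the 21 members with at least 5% on such transcripts. The share over all genes at that cut is not given here. Leaving out single libraries gave 18 to 24 and 20 to 27, where fewer libraries make it easier not to overlap. In vehicle, Rps19 stood at -0.60, -0.58 and -0.63 and Rps26 at -0.55, -0.50 and -0.59 by library totals, limma and totals without ribosomal RNA-like transcripts, Rpl15 at -0.04 and -0.08 by the totals, and Rpl4 at -0.00 by the last. The causes of these differences were not tested. Among members, the block changed no other call in vehicle beyond those given beside the results and Rpl14, Rpl18 and Rpl8. Alternatives with pseudogene copies, coding transcripts, totals without ribosomal RNA-like transcripts, the block without CsA_PI 2 and the retained-intron settings were chosen after seeing the data.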

Other observations

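Among 10 genes that control TOP mRNA translation and S6 kinase, 4 were higher and 2 lower in ethanol_PI than in ethanol_US, and 3 were higher and 3 lower in CsA_PI than in ethanol_PI, by edgeR's quasi-likelihood test. The shares over all genes were 20.1% and 19.7% in the first comparison and 10.3% and 12.7% in the second. With the replicate block Tsc2 was also lower in ethanol_PI (3 lower) and Rps6kb2 was not called in CsA_PI (2 higher). Rps6kb1, which encodes S6 kinase 1, stood at 1.00 in ethanol_PI over ethanol_US (adjusted p = 0.00137) and at -1.02 in CsA_PI over ethanol_PI (0.00217; -0.84 without CsA_PI 2). Of 5 tested ribosomal protein paralogs 3 were higher in ethanol_PI than in ethanol_US. Rpl7l1, a paralog of Rpl7 outside the symbol rule, stood at 1.44 in ethanol_PI over ethanol_US (0.000102), and was also called lower in CsA_PI than in ethanol_PI (adjusted p = 0.00215; -0.77 and 0.00143 without CsA_PI 2).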
